A study of Rattus norvegicus with 7 samples.

Results

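Genes that take up, make, break down and sense serotonin were examined in rat lung on 7 expression arrays. The 8 genes were the serotonin transporter Slc6a4, the synthesis enzymes Tph1 and Ddc, the breakdown enzymes Maoa and Maob, and the receptors Htr1b, Htr2a and Htr2b. Every probe set that the platform annotation gave 1 of these symbols, and no other symbol, was taken. That gave 11 of 31042 non-control probe sets, for 7 of the 8 genes, among 14217 genes with a probe set of their own symbol. No probe set here carried Tph1 alone, so Tph1 was not analysed here.

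All 7 rats were Dahl Salt Sensitive rats of 250 to 350 g, kept at an inspired oxygen of about 9.5% and given SU-5416, with lungs taken at 3.5 weeks. Age was not in the labels. The 3 arrays called HSU had hypoxia and SU-5416 only, and the 4 arrays called HSU_Sor had sorafenib in addition. SU-5416 is an inhibitor of the receptors for vascular endothelial growth factor, and its combination with chronic hypoxia is a rat model of severe pulmonary hypertension. Sorafenib inhibits RAF kinases and the receptors for vascular endothelial growth factor and platelet-derived growth factor. Hypoxia and SU-5416 were shared by both groups, and the normoxic and hypoxia-only groups of the study were not analysed here. The RNA came from whole right lung, after the pulmonary vessels had been flushed with saline. Fewer cells of a type and less RNA per cell cannot be told apart in such tissue. Each array was taken as a separate rat, which the labels do not state outright, so the p-values measure the spread between these samples. All HSU replicates carry a letter b (1b, 2b, 3b) that no HSU_Sor replicate carries, so whatever that letter marks cannot be told apart from the treatment.

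In peripheral tissues serotonin is made from tryptophan by Tph1, which sets the rate, and Ddc, the aromatic amino acid decarboxylase. The lung clears serotonin from the blood through Slc6a4, and the mitochondrial enzymes Maoa and Maob then oxidise it. Serotonin contracts pulmonary arteries through Htr1b and Htr2a and drives growth of their smooth muscle cells, and Htr2b is the receptor linked to serotonin-related valve and pulmonary vascular disease.

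Maoa and Maob lie next to each other on the X chromosome, on opposite strands and with 0 genes between them in the RefSeq annotation of GRCr8. Because these neighbours carry out the same reaction and are compared below, the 250 bases before each start are shown, from the RefSeq promoter table. Capitals mark GC boxes, the letters GGGCGG on either strand, which on the strand shown read GGGCGG or CCGCCC. The Maoa window is chrX:8681373-8681622 on the minus strand, and the Maob window is chrX:8490155-8490404 on the plus strand.
Maoa: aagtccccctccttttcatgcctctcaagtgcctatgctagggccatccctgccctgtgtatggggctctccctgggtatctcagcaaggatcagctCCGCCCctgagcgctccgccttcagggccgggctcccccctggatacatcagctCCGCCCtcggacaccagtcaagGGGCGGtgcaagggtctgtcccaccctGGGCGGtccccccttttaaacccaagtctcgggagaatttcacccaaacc
Maob: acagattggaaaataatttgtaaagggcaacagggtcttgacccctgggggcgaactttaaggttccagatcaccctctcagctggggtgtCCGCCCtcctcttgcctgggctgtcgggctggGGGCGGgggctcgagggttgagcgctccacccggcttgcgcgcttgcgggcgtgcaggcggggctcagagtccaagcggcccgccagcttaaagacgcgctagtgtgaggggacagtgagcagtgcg
The Maoa window held 4 GC boxes, with first bases 153, 99, 77 and 50 bases before the start, and a GC content of 62.4%. The Maob window held 2, at 159 and 127 bases, and a GC content of 63.6%. Of 33469 promoter windows of this length, 30.5% held at least 1 such box, 14.8% at least 2 and 3.67% at least 4, and the median GC content was 51.2%. Of the other genes with a window, Tph1 held 2 boxes, and Htr1b, Htr2b and the 3 windows of Ddc held 0. A match describes letters and is not evidence of a bound factor. The table had no window for Slc6a4 and Htr2a.

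The deposited values were on a log2 scale. Array medians lay between 3.59 and 3.68, and pairwise correlations between arrays were 0.984 to 0.992. The lung surfactant gene Sftpc was at 15.39 to 15.54 on all 7 arrays. HSU 1b and 2b stood apart from the rest. Their mean deviations over 6 cardiac muscle marker genes were 1.89 and 1.20, against -1.11 to -0.15 on the other 5 arrays. The MHC class II probe set RT1-Bb 1371065_at read 12.57 on both and 3.55 to 3.72 elsewhere. Another probe set of the same gene, 1371033_at, did not show this and read 13.08 to 14.06 across the 7 arrays. Hemoglobin was low on HSU_Sor 3 and 4, where Hbb read 12.11 and 11.59 against 14.23 to 14.75 on the others. The liver transcript Alb read 12.38 on HSU_Sor 1 and 6.76 to 8.14 elsewhere. Differences computed without each of these 2 pairs of arrays, HSU 1b with 2b and HSU_Sor 3 with 4, are given beside each gene whose difference is described by array. Leaving out HSU 1b and 2b leaves HSU 3b as the only HSU array, so those values compare HSU_Sor with a single array. Tests used limma on the 15521 probe sets whose mean was above the median of all probe sets, 3.64. No probe set (0%) passed a Benjamini-Hochberg adjusted p of 0.05, and the lowest adjusted p was 0.150. An unadjusted limma p below 0.05 was reached by 931 probe sets, 6% of those tested (2.33% with a higher and 3.67% with a lower HSU_Sor mean).

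Of the 11 serotonin probe sets, 4 were above the filter, 1 each for Slc6a4, Ddc, Maoa and Maob. None of the 4 passed the adjusted threshold. An unadjusted p below 0.05 was reached by 1 of 4, that of Slc6a4, beside the 6% over all tested probe sets. None met an unadjusted p below 0.01 with a 1.4-fold difference, which 0.844% of tested probe sets did. None had groups that did not overlap, which 5.26% of tested probe sets had. The HSU_Sor mean was higher for Slc6a4 and Maob and lower for Ddc and Maoa. Their median log2 difference was 0.03, against -0.01 over all tested probe sets, of which 46% had a higher HSU_Sor mean. Leaving out single arrays moved the median of the 4 across 0: it was -0.14 without HSU 1b, -0.02 without HSU_Sor 3, 0.11 without HSU_Sor 4 and 0.16 without HSU 3b.

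**Figure D1:**
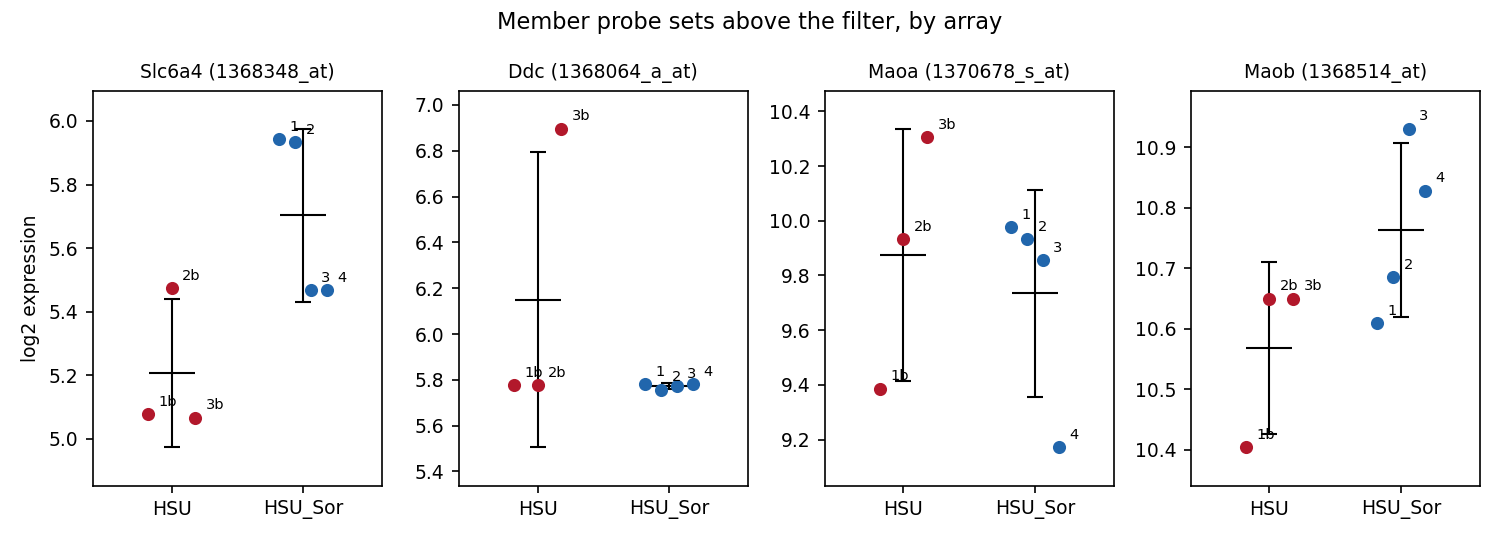
Deposited log2 expression of Slc6a4, Ddc, Maoa and Maob on each of the 7 arrays. Points are arrays, labelled by replicate, and the horizontal bar and whiskers are the group mean and SD (3 HSU and 4 HSU_Sor arrays). The groups overlap in all 4 panels, and the Ddc panel shows HSU 3b alone at 6.90.

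The serotonin transporter Slc6a4 was the only tested serotonin gene with an unadjusted p below 0.05, and its mean was higher in lungs that also received sorafenib. On the HSU arrays it read 5.08, 5.47 and 5.07 (replicates 1b, 2b, 3b), and on the HSU_Sor arrays 5.94, 5.93, 5.47 and 5.47 (replicates 1 to 4). The values lay at 3 levels: HSU 1b and 3b at the lowest, HSU 2b with HSU_Sor 3 and 4 in the middle, and HSU_Sor 1 and 2 at the highest. Gaps between levels were 0.391 and 0.460, and no gap within a level exceeded 0.0106. The groups met in the middle level, where HSU 2b was marginally above HSU_Sor 3 and 4. Group means were 5.21 ± 0.23 (SD, n = 3) and 5.70 ± 0.27 (SD, n = 4). The log2 difference was 0.50 (SE 0.18, 95% interval 0.07 to 0.92), a ratio of 1.41. The limma p was 0.0283 unadjusted and 0.812 after Benjamini-Hochberg adjustment, so the difference was not called. The exact two-sided permutation test over the 7 arrays gave p = 0.171, where 35 arrangements allow no p below 0.0571.

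The Slc6a4 difference was 0.64 when HSU 1b and 2b were left out, which leaves HSU 3b as the only HSU array. It was 0.73 when HSU_Sor 3 and 4, the arrays low in hemoglobin, were left out. Slc6a4 is expressed in lung endothelium and vascular smooth muscle, and platelets carry its protein. The endothelial marker level did not separate the groups. Its mean deviation over 9 genes was -0.07 to 0.05 in HSU and -0.21 to 0.20 in HSU_Sor. The median difference of these genes was -0.04, and 1 of the 9, Vwf, had an unadjusted p below 0.05 with a higher HSU_Sor mean. The smooth muscle level over 10 genes was 0.24 to 0.41 in HSU and -0.49 to -0.001 in HSU_Sor, opposite in direction to Slc6a4. Of those 10 genes, 4 reached an unadjusted p below 0.05, all with lower HSU_Sor means. Of 6 measured platelet markers, only Pf4 was above the filter, at 9.43 to 9.69 in HSU and 8.10 to 11.07 in HSU_Sor, and Itga2b was at 1.83 to 1.86. Pf4 was highest on HSU_Sor 2 and lowest on HSU_Sor 4. The part of these cell types in the Slc6a4 values was not tested.

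Rodent mast cells store serotonin, and their marker level did not overlap between the groups. Over 6 tested genes of 11 measured, the mast cell level was 0.11 to 0.94 in HSU and -0.58 to -0.10 in HSU_Sor. Of the 6, 3 reached an unadjusted limma p below 0.05 with lower HSU_Sor means. These were Mcpt10, Mcpt1 and Cpa3, with differences of -2.42, -1.16 and -0.74. The other tested genes did not reach that p: Kit had a difference of -0.16, Hdc -0.002 and Mcpt4 0.22. Hdc ranged over only 0.0528, beside a median of 0.0610 for probe sets below the filter, so it cannot show a difference. Mcpt4 read 5.15 on HSU_Sor 1 and 4.08 to 4.27 elsewhere, so its difference rests on that array. The level thus rests on part of its list, with Mcpt10 the largest. The mast cell tryptases Tpsab1 and Tpsb2 and the chymase Cma1 were below the filter, at 1.94 to 1.99, 2.72 to 2.94 and 2.86 to 2.97. Fcer1a and Ms4a2, also below the filter, stood out on HSU 2b, the array with the highest mast cell level. Fcer1a read 3.68 there and 2.61 to 2.70 elsewhere, and Ms4a2 read 3.51 there and 2.98 to 3.10 elsewhere. With the mast cell level as a covariate in limma, the Slc6a4 difference was 0.96 (adjusted p = 0.841), still uncalled. Since the 2 groups do not overlap in that level, the fit separates it from treatment only through the spread within groups.

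Ddc, which makes serotonin and dopamine from their amino acid precursors, was flat on 6 arrays and high on 1. Its probe set 1368064_a_at read 5.78, 5.78 and 6.90 on HSU 1b, 2b and 3b. On HSU_Sor replicates 1 to 4 it read 5.78, 5.76, 5.77 and 5.78. Only HSU 3b stood out, and the other 6 arrays of both groups lay within 0.0257 of each other. Probe sets below the filter had a median range of 0.0610 over all 7 arrays. Whether those 6 Ddc values are above background therefore cannot be told. Means were 6.15 ± 0.65 (SD, n = 3) and 5.77 ± 0.01 (SD, n = 4). The log2 difference was -0.38 (SE 0.28, 95% interval -1.04 to 0.29), with an unadjusted limma p of 0.218 and an adjusted p of 0.874. The exact two-sided permutation p was 0.343. Without HSU 3b the difference was -0.01, so this array alone carried it. Without HSU 1b and 2b, which leaves HSU 3b as the only array of its group, it was -1.12. Leaving out HSU_Sor 3 and 4 gave -0.38.

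The second Ddc probe set, 1375317_at, was below the filter, at 1.56 to 1.64. At that signal it could not show whether Ddc was higher on HSU 3b. Ddc is also a marker of pulmonary neuroendocrine cells. Of 8 measured genes of that list, only Ddc itself and Syp were above the filter. Syp, a synaptic vesicle protein, read 5.29 on HSU 3b and 5.25 to 5.33 elsewhere. Its range was 0.0754, beside a median of 0.0610 for probe sets below the filter. Like the median of those probe sets, it was highest on HSU 2b and lowest on HSU_Sor 3. Syp therefore cannot show whether such cells differed between arrays. The secretory granule gene Chga was at 2.56 to 2.65 and the neuropeptide gene Calca at 3.31 to 3.43, both below the filter on all 7 arrays. HSU 3b also had the lowest cardiac muscle level of the HSU arrays, -0.93, and with that level as a covariate the Ddc difference was -0.86 (limma adjusted p = 0.389). The HSU array that is low in cardiac muscle level is also the only array with high Ddc. The larger difference in that fit therefore still rests on HSU 3b.

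Neither monoamine oxidase had a called difference, and that of Maoa had no stable sign. Maoa, whose enzyme prefers serotonin and noradrenaline, read 9.39, 9.93 and 10.30 on HSU 1b, 2b and 3b. On HSU_Sor replicates 1 to 4 it read 9.98, 9.93, 9.86 and 9.17. Both the highest array, HSU 3b, and the second lowest, HSU 1b, belonged to HSU, and HSU_Sor 4 was the lowest of all. The other HSU_Sor arrays lay between these HSU values, so the groups overlapped throughout. Means were 9.87 ± 0.46 (SD, n = 3) and 9.73 ± 0.38 (SD, n = 4). The log2 difference was -0.14 (SE 0.28, 95% interval -0.82 to 0.54), with a limma adjusted p of 0.932 and an exact two-sided permutation p of 0.743. Its sign depended on single arrays: it was 0.07 without HSU 3b, 0.05 without HSU_Sor 4 and -0.38 without HSU 1b. Leaving out the pair HSU 1b and 2b gave -0.57, and leaving out the pair HSU_Sor 3 and 4 gave 0.08. No direction can therefore be given for Maoa. Its probe set, 1370678_s_at, has the suffix that the array maker uses for probes shared by more than 1 transcript.

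Maob, whose enzyme prefers phenylethylamine and also oxidises dopamine, read 10.40, 10.65 and 10.65 on the HSU arrays (1b, 2b, 3b). On HSU_Sor replicates 1 to 4 it read 10.61, 10.69, 10.93 and 10.83. HSU 1b was the lowest array, and 3 HSU_Sor arrays were above every HSU array, while HSU_Sor 1 was below HSU 2b and 3b. Means were 10.57 ± 0.14 (SD, n = 3) and 10.76 ± 0.14 (SD, n = 4). The log2 difference was 0.20 (SE 0.10, 95% interval -0.05 to 0.44), a ratio of 1.15. The unadjusted limma p was 0.103, the adjusted p 0.874 and the exact two-sided permutation p 0.229. The difference was 0.11 without HSU 1b, also 0.11 without HSU 1b and 2b together, and 0.08 without HSU_Sor 3 and 4, the 2 arrays with the highest Maob.

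The serotonin receptors linked to pulmonary artery contraction and growth had no signal above the filter. Htr1b read 2.83, 2.85 and 2.79 on the HSU arrays (1b, 2b, 3b), and 2.84, 2.81, 2.74 and 2.84 on HSU_Sor replicates 1 to 4. Htr2b read 2.86, 2.88 and 2.84 on the HSU arrays (1b, 2b, 3b), and 2.87, 2.83, 2.83 and 2.88 on HSU_Sor replicates 1 to 4. Both genes had overlapping groups, and the wider of their ranges across the 7 arrays was 0.119. Htr2a had 4 probe sets: 1369124_at at 2.31 to 2.36, 1369125_at at 2.84 to 3.00, 1369894_at at 1.71 to 1.75, and 1387752_s_at at 2.54 to 2.64. No group difference was detectable at these signals. In the limma fit over all 31042 probe sets, the lowest unadjusted p among the 7 serotonin probe sets below the filter was 0.282. Of the 7, 0 were below 0.05, against 3.51% of all probe sets. That share includes probe sets above the filter, and the share among those below it alone was not computed.

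These 7 probe sets varied together from array to array, by very small amounts and in the same way as other dim probe sets. All 7 were highest on HSU 2b, as were 84.5% of all probe sets below the filter. The median deviation of the 7 was 0.03 on HSU 2b and -0.02 on HSU_Sor 3, where all dim probe sets had 0.03 and -0.03. The widest of the 7 ranged over 0.156, and 85.8% of dim probe sets ranged no further. The median range was 0.0610 for dim probe sets and 0.442 for tested ones. The arrays therefore give no level of these receptors in the lung, only that they read in the range of probe sets below the filter.

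**Figure D2:**
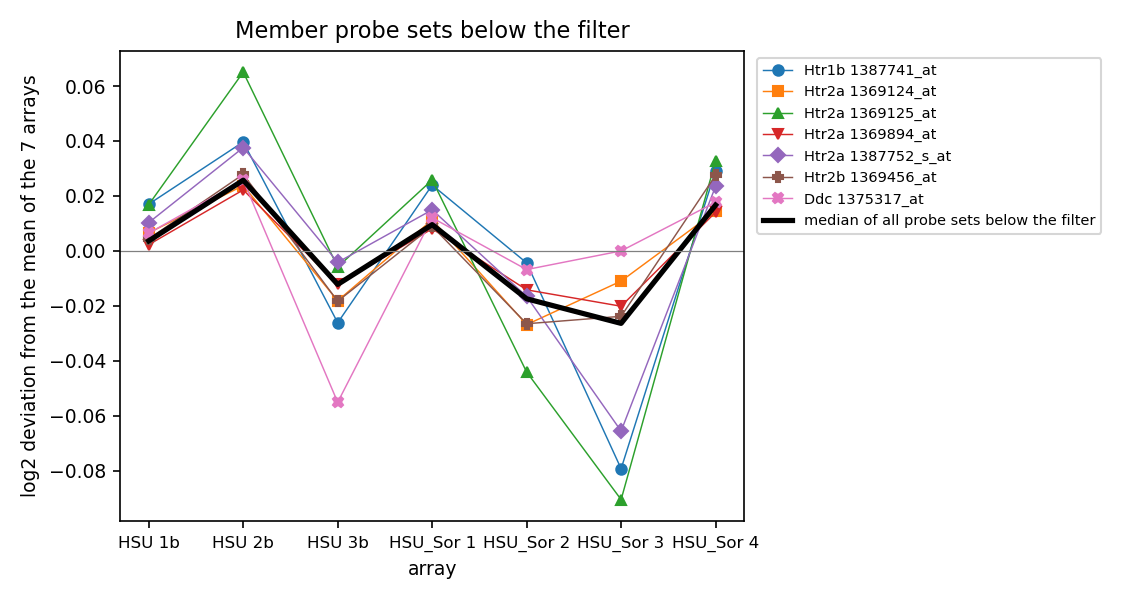
Deviation of each serotonin probe set below the filter from its own mean over the 7 arrays, in log2 units (lines for Htr1b, Htr2a, Htr2b and the second Ddc probe set), with the median deviation of all probe sets below the filter. All 7 lines peak on HSU 2b, as the median does, and the widest line spans 0.156 log2 units.

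A wider list of 56 serotonin pathway genes was read from the same fit, and 48 of them had a probe set with 1 symbol. Of their 69 probe sets, 34 were tested, for 25 genes. None passed the adjusted threshold. An unadjusted limma p below 0.05 was reached by 3 of 34 (8.82%, against 6% of all tested probe sets), 2 with higher and 1 with lower HSU_Sor means. An unadjusted p below 0.01 with a 1.4-fold difference was reached by 1, against 0.844% of all. The groups did not overlap for 4 (11.8%, against 5.26% of all). Of the 34, 13 had a higher and 21 a lower HSU_Sor mean, and their median difference was -0.03, against -0.01 over all tested probe sets.

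Genes for the tetrahydrobiopterin cofactor of Tph1 and for tryptophan supply and breakdown had 8 tested probe sets, 1 with a higher and 7 with a lower HSU_Sor mean. None reached an unadjusted p below 0.05, and the median difference was -0.13. The one closest was Gch1, the rate-limiting enzyme of tetrahydrobiopterin synthesis. Its tested probe set, 1387221_at, read 7.80, 6.90 and 7.88 in HSU and 6.68, 6.89, 6.36 and 7.28 in HSU_Sor. HSU 1b and 3b were above every HSU_Sor array, while HSU 2b lay among them. The Gch1 difference was -0.73 (SE 0.31), with an unadjusted limma p of 0.0529 and an adjusted p of 0.834. It was -1.08 with HSU 1b and 2b left out, -0.74 without HSU_Sor 3 and 4, and -0.55 to -1.04 with each array left out in turn. Another Gch1 probe set, 1368503_at, was below the filter, at 1.31 to 1.35. Slc3a2, the heavy chain of the amino acid transporter that carries tryptophan, had a difference of -0.16 (SE 0.08, unadjusted limma p of 0.110). It was -0.26 without the first pair of arrays and -0.13 without the second. Qdpr, which recycles tetrahydrobiopterin, had one of -0.17 (SE 0.15, unadjusted limma p of 0.317). The Qdpr value depended on single arrays: it was -0.07 without HSU_Sor 1, -0.10 without HSU 3b and -0.27 without HSU_Sor 4. It was -0.30 with HSU 1b and 2b left out and -0.39 without HSU_Sor 3 and 4.

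Among genes of storage, other uptake and clearance, 2 of 10 probe sets were tested. Aldh2, the mitochondrial aldehyde dehydrogenase that handles the aldehyde made by the monoamine oxidases, read 12.48, 12.38 and 12.34 in HSU. In HSU_Sor it read 12.63, 12.65, 12.56 and 12.52. Every HSU_Sor array was above every HSU array. The Aldh2 difference was 0.19 (SE 0.06), a ratio of 1.14, with an unadjusted limma p of 0.0134 and an adjusted p of 0.727. It was 0.25 with HSU 1b and 2b left out and 0.24 without HSU_Sor 3 and 4. The other, the sulfotransferase Sult1a1, had a difference of 0.001. The vesicular transporters Slc18a1 and Slc18a2, which load serotonin into granules, were below the filter on all their probe sets, at 1.72 to 2.21.

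The 11 other serotonin receptor genes had 16 probe sets and none above the filter, at 1.66 to 3.70. The highest value was Htr2c 1376980_at on HSU_Sor 4, at 3.70 against 3.00 to 3.11 on the other 6 arrays, which was singled out after its values were seen. With the 3 receptors above, 14 receptor genes were thus read and none was tested.

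Partners and downstream genes of the receptors and the transporter had 24 tested probe sets, 10 with a higher and 14 with a lower HSU_Sor mean, and a median difference of -0.01. Rgs5, a pericyte-enriched inhibitor of Gq and Gi signalling, read 9.03, 8.79 and 8.93 in HSU and 6.92, 8.36, 6.82 and 7.86 in HSU_Sor. All HSU_Sor arrays were below all HSU arrays, and they spread over a wider range. The Rgs5 difference was -1.43 (SE 0.39), 2.69-fold lower, with an unadjusted limma p of 0.0098 and an adjusted p of 0.683. It was -1.44 with HSU 1b and 2b left out and -1.28 without HSU_Sor 3 and 4. Rgs5 is also 1 of 8 pericyte and fibroblast markers, whose level was 0.35 to 0.44 in HSU and -0.44 to -0.20 in HSU_Sor. In that list 5 of 8 genes reached an unadjusted p below 0.05 with lower HSU_Sor means. Its part in the Rgs5 value was not tested.

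Plcb4, a phospholipase C that acts downstream of Gq-coupled receptors, read 11.41, 11.54 and 11.47 in HSU on probe set 1386962_at. In HSU_Sor it read 11.66, 11.72, 11.81 and 11.61. All HSU_Sor arrays were above all HSU arrays. The Plcb4 difference was 0.23 (SE 0.06), a ratio of 1.17, with an unadjusted limma p of 0.0098 and an adjusted p of 0.683. It was 0.23 and 0.22 without those same pairs of arrays. The second Plcb4 probe set, 1370489_a_at, had a difference of -0.15 (SE 0.41), so the probe sets of this gene disagree in sign. Gnaq, the G protein subunit that links Htr2a and Htr2b to phospholipase C, had a difference of -0.34 (SE 0.70).

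**Figure D3:**
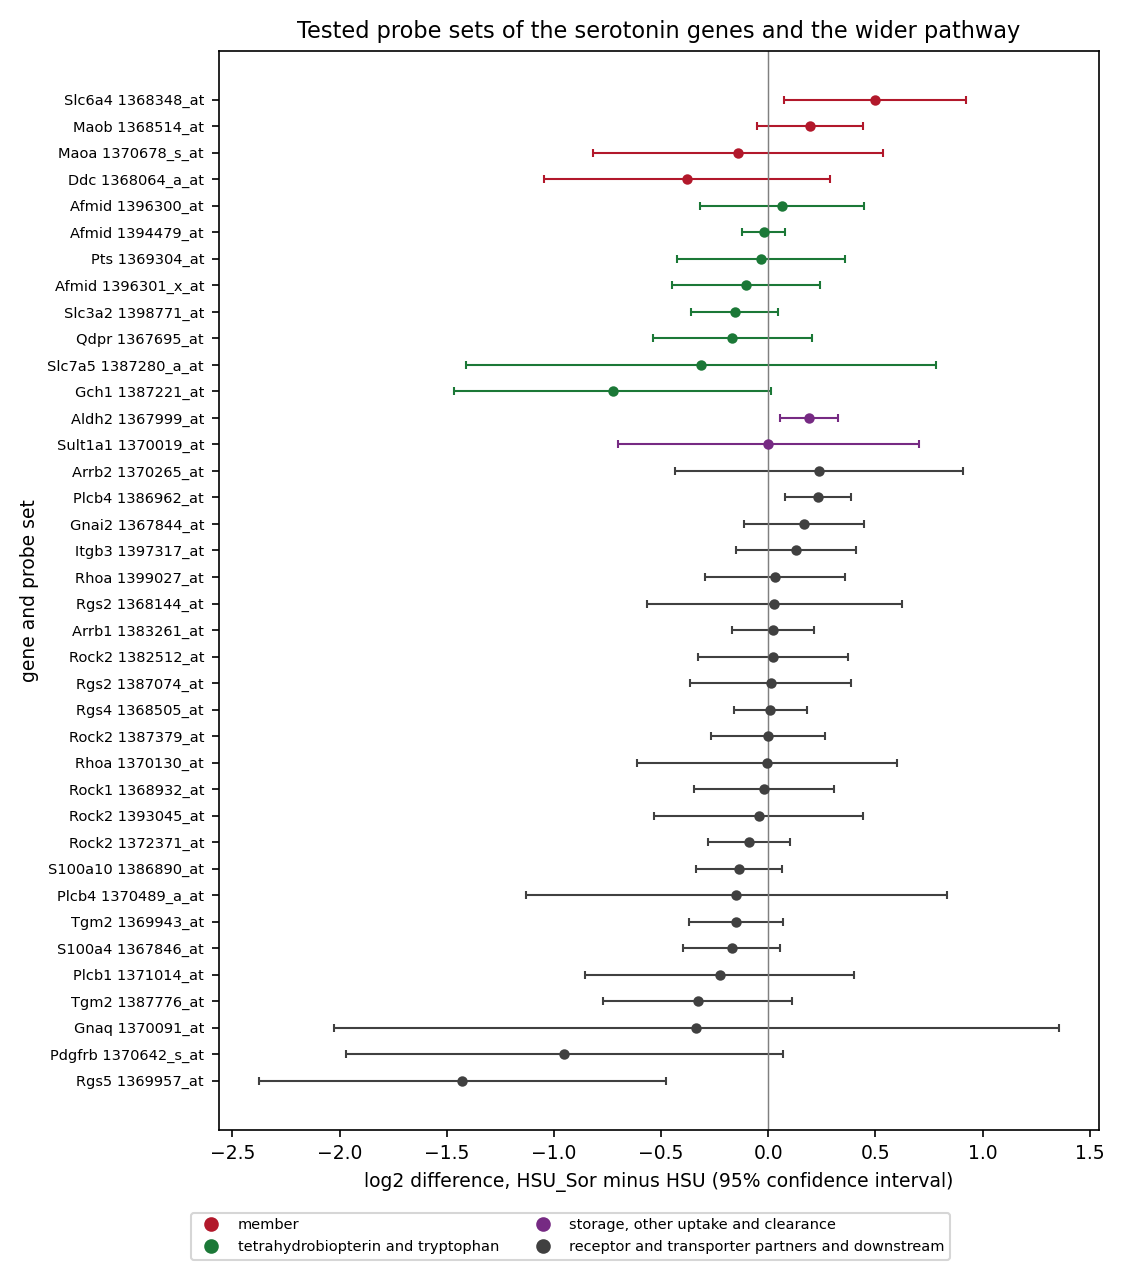
Log2 difference, HSU_Sor minus HSU, of the 4 tested serotonin probe sets and the 34 tested probe sets of the wider pathway, with 95% confidence intervals from limma (3 against 4 arrays), coloured by role. The intervals of Slc6a4, Aldh2, Plcb4 1386962_at and Rgs5 leave out 0, and none of them passed the adjusted threshold.

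The genes most like each serotonin gene over the 7 arrays were found by Pearson correlation among 9298 genes with a tested probe set. These are descriptions over 7 shared arrays. The nearest to Slc6a4 were Csf1, a macrophage growth factor (r = 0.993), Tfpi, an inhibitor of coagulation (r = 0.969), and Plau, the urokinase plasminogen activator (r = 0.945). Csf1 read 7.75, 8.05 and 7.75 in HSU and 8.35, 8.44, 8.05 and 8.07 in HSU_Sor, with the same arrays lowest, in the middle and highest as for Slc6a4. The macrophage level itself, over 7 genes, was -0.19 to 0.82 in HSU and -0.77 to 0.02 in HSU_Sor. Of the 7 genes, 3 had an unadjusted limma p below 0.05 and a lower HSU_Sor mean: C1qa, C1qb and C1qc. The others went the other way, with differences of 0.39 for Cd68, 0.17 for Csf1r, 0.07 for Cd14 and 0.01 for Mrc1. The median difference over the list was 0.01, so the lower level came from the C1q genes.

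The nearest to Ddc were Chid1 (r = 0.99996), Nek3 (r = 0.99966) and Usp18 (r = 0.99964), all flat except on HSU 3b. Usp18, an interferon-induced regulator of interferon signalling, read 10.57 on HSU 3b and 8.26 to 8.29 on the other 6 arrays. With 6 nearly equal values, such a correlation rests on 1 array. The nearest to Maoa were Wdr43 (r = 0.986), Birc3 (r = 0.979) and Smarca5 (r = 0.976). The nearest to Maob were Vwa8 (r = 0.989), Zfp292 (r = 0.974) and Rbm39 (r = 0.972), each lowest on HSU 1b and highest on HSU_Sor 3.

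**Figure D4:**
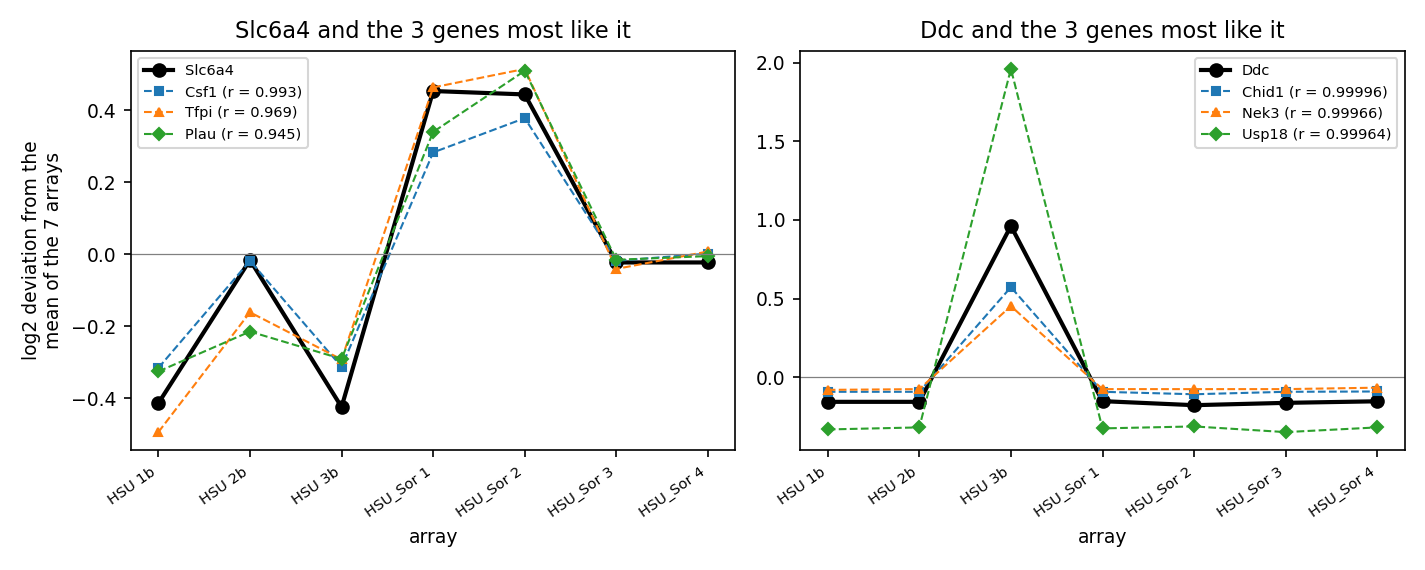
Log2 values on each array, as deviations from the gene's own mean over the 7 arrays, of Slc6a4 and Ddc and of the 3 genes with the highest Pearson correlation to each. The Ddc panel shows a single array, HSU 3b, above 6 nearly equal ones, and the Slc6a4 panel shows the 3 levels.

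Equal values across arrays were common in the deposited table. Of the tested probe sets, 36% had at least 2 arrays equal within 1e-06, and so did all 4 tested serotonin probe sets. For Slc6a4 these were HSU_Sor 3 and 4, for Ddc and Maob they were pairs of HSU arrays, and for Maoa they were HSU 2b and HSU_Sor 2.

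The remaining marker lists are given for the tissue as a whole. The erythroid level over 2 tested genes was 0.66 to 1.47 in HSU, and in HSU_Sor it was -3.47 to 2.44. For cardiac muscle, 2 of 6 tested genes reached an unadjusted p below 0.05 with lower HSU_Sor means. For lung epithelium, the level over 6 genes stayed within -0.04 to 0.11 on all arrays, and 1 of the 6 reached an unadjusted p below 0.05, with a higher HSU_Sor mean. Only 1 of 3 nerve genes and 1 of 4 genes of organs other than lung, Alb, were above the filter, and neither reached it.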

How the data were processed

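Total RNA from 7 rat lungs was hybridised to 1-colour arrays as biotin-labelled cRNA. The authors deposited 1 log2 value per probe set and array, with RMA and GCRMA named in the submitters' processing notes but not their roles or versions. These log2 values were analysed without further normalization. Control probe sets (57) were left out. Of the 31042 others, 20826 carried 1 gene symbol, 436 several and 9780 none, and only those with 1 symbol were named. All 11 serotonin probe sets matched the RefSeq table of GRCr8 by gene ID with the same symbol. The genome build behind the deposited values was not given, so gene coordinates are printed for promoter windows only.

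HSU_Sor was compared with HSU in limma 3.58.1 (R 4.3.3), lmFit and eBayes, two-sided, on the 15521 probe sets with a mean above the median. P-values were adjusted by Benjamini-Hochberg over all of them. A second call rule was an unadjusted p below 0.01 with a fold of at least 1.4. Probe sets below the filter were read from a fit over all 31042. Fitting was tested on simulated data. Exact permutation tests over arrays were two-sided. The number of arrays limits the precision.

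Named were all 8 genes, pathway probe sets with an unadjusted p below 0.05 or otherwise up to 3 per role with the smallest p, and the 3 most correlated genes per tested member. Any other gene given with values was chosen after they were seen. A marker level is the mean, over the tested genes of a list (1 probe set per gene, the brightest), of the deviation from the gene's mean over the 7 arrays. Lists were endothelial, smooth muscle, pericyte and fibroblast, neuroendocrine, mast cell, platelet, cardiac muscle, erythroid, macrophage, lung epithelium, nerve and liver. The genes and lists were chosen with earlier results of these data known. Alternatives covered filters, normalization, variance model, array weights, probe set summary, replicate block, marker levels as covariates and arrays left out. SAM, named in the series text, was not run.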

Additional observations from a re-analysis of the deposited data

Results flagged for a closer look

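Maoa read 9.17 on HSU_Sor 4, below the other HSU_Sor arrays by 0.852 of the range of the group, above Dixon's 95% critical value for 4 samples. It was the only 1 of 17 groups looked at, and chance gives about 1 in 20. Without this array the Maoa difference was 0.05 in place of -0.14.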

How the results depend on the processing

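No serotonin probe set passed the adjusted threshold under any alternative run. The count over all probe sets was 0, but 6 under a filter at the 75th percentile and 0 to 6 with each array left out in turn (6 without HSU 3b). The Slc6a4 difference kept its sign in 18 alternatives (0.418 to 0.959, adjusted p 0.415 to 0.980), as did Maob in 20 (0.0796 to 0.247, adjusted p 0.720 to 0.99998) and Ddc in 18 (-1.12 to -0.00502, adjusted p 0.389 to 0.990). The filter and variance model settings leave a difference unchanged by construction, as does keeping 1 probe set per gene. The 18 and 20 are therefore not all separate checks of the sign. Maoa reversed in 5 of 20. Its difference was 0.0475 with the replicate block and 0.0242 with the mast cell level as a covariate. It was 0.0800 without HSU_Sor 3 and 4 together (an alternative chosen after seeing the data), and -0.384 to 0.0748 with each array left out. The replicate block and leaving out HSU_Sor 4 gave the same Maoa difference, because HSU_Sor 4 is alone in its block. They are not separate reversals. The median of the 4 serotonin probe sets was -0.228 without HSU 1b and 2b, and -0.135 to 0.156 with each array left out. For the wider pathway, each array left out gave a median of -0.103 to 0.0162 and 1 to 4 lower probe sets at an unadjusted p below 0.05 (4 without HSU 2b, 2 without HSU_Sor 1, 2 or 4). The cause was not tested.

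Same-numbered arrays correlated at -0.06, 0.18 and 0.14 in their deviations from group means, and the other pairs of arrays at -0.17 to 0.24. With so few arrays these values cannot decide whether the numbers pair them, and the main fit used no pairing. With the replicate block, Slc6a4 was 0.58, Maob 0.17 and Ddc -0.38, none called. HSU_Sor 4 has no same-numbered HSU array, so these differences equal those without HSU_Sor 4. Slc6a4 and Ddc were below the filter at the 75th percentile and with the mean of probe sets per gene, and gave no value in either. The signal of the receptors limits any statement about them to the floor of the arrays.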
